A study of Mus musculus with 8 samples.

Results

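The collagen genes were taken as the genes tested between the genotypes whose mouse symbol has the form *Col*, a type number, the letter a and a chain number. This rule does not use any measured value beyond the filter on low counts, and it gave 42 genes of 16658 tested. *Col19a1*, with 22 counts in all 8 libraries together, and *Col10a1*, with 15, have the same form of symbol but were under the filter. Expression was measured by RNA-seq of whole uteri at postnatal day 10 (PD10) from 4 control mice, which carried the floxed *Ezh2* allele (*Ezh2* f/f) without Cre, and 4 *Ezh2 Amhr2*-Cre cKO mice, which carried the same allele together with the *Amhr2*-driven Cre recombinase (Acre in the labels), with one library per mouse. *Amhr2* drives Cre in cells that derive from the mesenchyme of the reproductive tract, and the libraries hold the uterine epithelium as well. EZH2 is the subunit of polycomb repressive complex 2 that methylates lysine 27 of histone H3, a mark of silent genes. Between 25287141 and 36685807 reads per library were counted on genes, and levels are given as CPM, a count scaled to library size, after TMM scaling, which corrects for differences in library composition. Differences between the genotypes are given as the log2 ratio of cKO to control from edgeR's fit, with its standard error (SE).

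Collagens are the main fibrous proteins of the extracellular matrix, and each is a rope of 3 chains wound together. Fibrillar collagens (types I, II, III, V, XI, XXIV and XXVII) form or seed the banded fibrils that give stroma and muscle wall their strength. Type IV collagens form the sheet of the basement membrane under epithelia and around muscle cells and vessels, FACIT collagens (fibril-associated collagens with interrupted triple helices) sit on the fibril surface, and type VI collagens form beaded filaments between cells and fibrils. In the newborn uterus the matrix is laid down while stroma and smooth muscle layers separate and glands bud from the luminal epithelium.

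Of the 42 collagen genes, 8 rose and 3 fell in cKO uteri with an adjusted p under 0.05 in edgeR's quasi-likelihood test. Together that is 26.2% of them, beside 5.34% of all genes tested. In the higher direction the background was 2.62% and in the lower direction 2.71%. *Col6a5* was the only one that also passed the 2-fold threshold for a DE gene, which 1.3% of all genes did, and the other 10 differed by less than 2-fold. DESeq2 called 19 collagen genes (9.06% of all genes), the 11 and *Col1a1*, *Col1a2*, *Col4a3*, *Col5a3*, *Col6a4*, *Col9a2*, *Col16a1* and *Col20a1*, which did not pass in edgeR. Log2 ratios were above 0 in 31 of the 42 genes (50.1% of all genes), with a median of 0.25, and the median of all genes tested was 0.00044. With a score of fat markers as a covariate the collagen median was 0.055. Every cKO library lay above every control library in 7 collagen genes (5.9% of all genes) and below every control library in 4 (6.43% of all genes). The exact permutation test, two-sided, gave 0.029, the smallest p that 4 mice against 4 allow, in the 8 genes that passed without overlap, and 0.0571 in *Col3a1*, *Col5a1* and *Col4a5*. In bulk tissue, fewer cells of a type and less RNA per cell cannot be told apart.

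**Figure D1:**
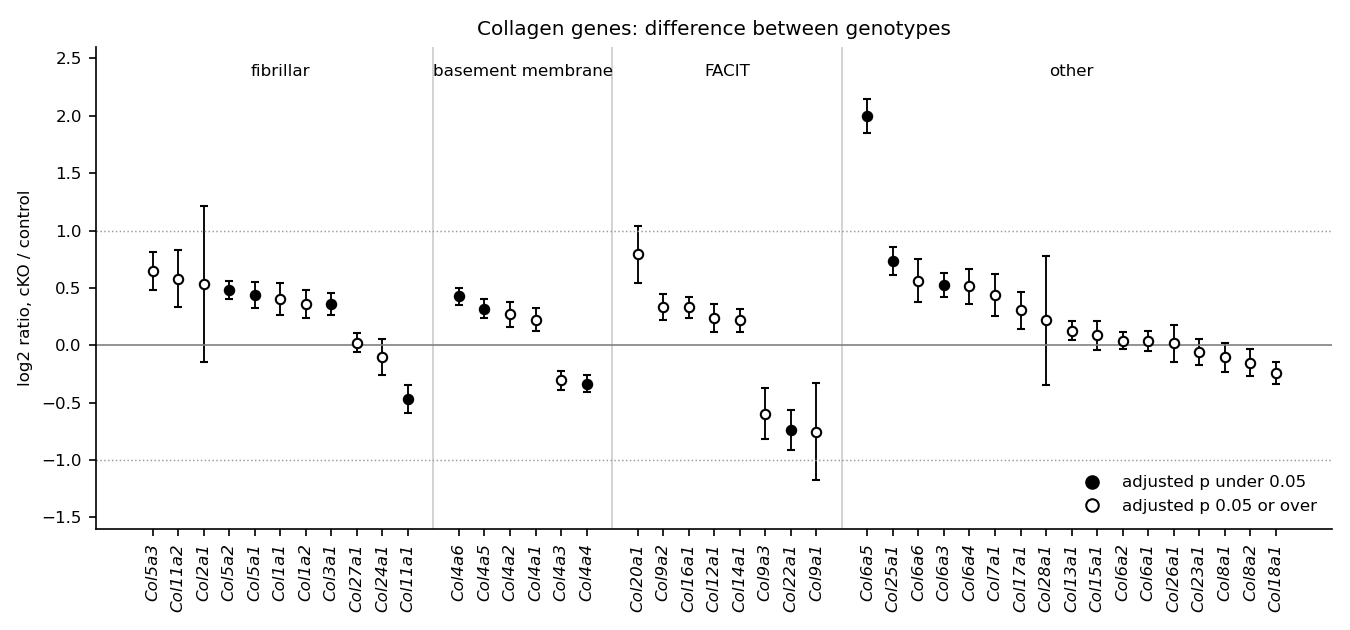
Log2 ratio of each of the 42 collagen genes between cKO and control uteri (vertical axis), by class (horizontal axis), with bars of 1 standard error (SE) from edgeR's fit and dotted lines at a 2-fold change. Filled points passed an adjusted p under 0.05. *Col6a5* stands at 2.00, the remaining genes lie between -0.75 and 0.79, and 31 of the 42 points are above 0.

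The libraries did not contribute evenly. In control replicate 3 collagen genes were low, with the lowest control value in 29 of the 42 genes (25.7% of all genes), and cKO replicate 4 had the lowest cKO value in 26 (29.6% of all genes). Leaving out a library changed the number that passed, both among collagen genes and among all genes. For collagen genes it was 4 without control replicate 1 (2.38% of all genes in the same fit), 7 without control replicate 3 (3.45%), 6 without control replicate 4 (3.89%) or cKO replicate 1 (2.74%), 5 without cKO replicate 2 (2.94%) and 19 without cKO replicate 4 (10.7%). Collagen transcripts made up 1.85% ± 0.17 of the counts in control libraries and 2.29% ± 0.26 in cKO libraries (SD, n = 4 each), with 1.90% in cKO replicate 4, which is inside the control range of 1.61% to 2.00%.

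Over all genes tested, cKO replicate 4 was nearer to control replicates 3 and 4 than to any library of its own genotype. The chi-square per gene between its counts and those of another library was 12.0 for control replicate 4, 14.2 for control replicate 3, 18.3 for control replicate 1 and 24.1 for control replicate 2, and 18.1 to 20.2 for the other cKO libraries, which differed among themselves by 7.73 to 14.6. Control replicate 2 differed from control replicates 3 and 4 by 21.3 and 21.0. In cKO replicate 4 the summed markers of fat were inside the control range, although *Fabp4* and *Adrb3* were above all controls, at 1.61 and 2.10 CPM. The summed CPM of the 7 tested fat markers was between 6.97 and 16.9 in controls, between 82.8 and 183 in cKO replicates 1 to 3, and 8.93 in cKO replicate 4, where the fat hormone gene *Adipoq* was at 0.035 CPM. In edgeR 1 of these 7 markers, *Adrb3*, passed, where 6 had an unadjusted p under 0.05, DESeq2 called 5 and limma-voom called 1. The other 3 of the 10 listed were under the filter on low counts, which asks for 4 libraries. Among them *Retn*, which encodes the fat hormone resistin, had 2, 5, 3 and 3 counts in controls, 213, 445 and 180 in cKO replicates 1 to 3 and 2 in cKO replicate 4, *Lep* had up to 2 counts in controls and up to 62 in cKO libraries, and *Ucp1* had up to 9 and up to 6. A total of 9 of the 11 collagen genes that passed the test lay beyond the control range in cKO replicate 4 too, on the side of the change, and the exceptions were *Col3a1* and *Col5a1*. Compared alone with the controls, an alternative chosen after seeing the data, cKO replicate 4 gave a median log2 ratio of 0.029 over the 40 collagen genes it could test, and *Col6a5* alone passed in edgeR (0.217% of all genes), where 9 collagen genes had an unadjusted p under 0.05. With a score of the fat markers as a covariate *Col6a5* and *Col25a1* passed, and 98 of all genes (0.588%) did. Among the 9 genes that no longer passed, the log2 ratios with the covariate were 0.34 in *Col4a5*, 0.38 in *Col4a6*, 0.38 in *Col5a2*, 0.36 in *Col6a3*, -0.42 in *Col11a1*, -0.83 in *Col22a1* and -0.26 in *Col4a4*, all within 1.5 times of those without it. In *Col3a1* and *Col5a1* they were 0.12 and 0.16, beside 0.36 and 0.44 without it. For cKO replicate 4 alone those genes were at 0.10 and 0.13, and *Col4a5*, *Col4a6*, *Col5a2*, *Col6a3*, *Col11a1*, *Col22a1* and *Col4a4* at 0.31, 0.37, 0.35, 0.37, -0.47, -0.95 and -0.30.

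Among other cell types, *Erbb3* and *Sox10* of 6 Schwann cell markers rose. The sum of the 6 was higher in every cKO library (83.1 to 98.9 CPM) than in any control (71.6 to 81.4 CPM). *Erbb3* alone made up most of this sum, with means of 53.2 CPM in control and 67.0 CPM in cKO libraries. Its own groups overlapped (49.8 to 58.6 and 58.2 to 71.9 CPM). *Sox10* averaged 1.31 and 2.46 CPM, and *Mbp* had a log2 ratio of 0.057. Of 3 tested cartilage markers (4 more were under the filter) *Hapln1* fell, with sums of 11.0 to 13.9 CPM in cKO and 16.7 to 23.8 CPM in control libraries. *Hapln1* alone made up most of these sums, with means of 11.4 CPM in cKO and 19.8 CPM in control libraries. *Chad* had a log2 ratio of 0.14, and *Acan*, described below, one of 1.75. Of the 12 skeletal muscle markers 7 were under the filter. Of the 5 tested *Tnnt3* rose, and the summed CPM of the 5 was 53.0 to 88.4 in control and 50.1 to 72.2 in cKO libraries. *Acta1* alone made up most of this sum, with means of 49.4 and 45.2 CPM (log2 ratio -0.13). Log2 ratios were 0.80 in *Tnnt3*, 0.24 in *Tnni2* and 1.46 in *Ckm*. *Myh3* (0 to 0.143 CPM in controls and 0.37 to 1.91 CPM in cKO uteri), *Acan* of the cartilage list (0.0631 to 0.357 and 0.49 to 0.932 CPM) and *Foxd3* of the Schwann cell list (0.155 to 0.302 and 0.49 to 0.647 CPM) passed the test, but they met the filter through the cKO libraries, so their calls are no support for a difference. Among the 7 under the filter, *Myog* had up to 1 count in controls and 35, 21, 6 and 14 in cKO libraries. Of 6 markers of stratified squamous epithelium 0 passed in edgeR or DESeq2 (2 with an unadjusted p under 0.05 in each). Their log2 ratios were above 0 in 3 and below 0 in 3, *Trp63* (-0.22), *Krt14* (-0.16) and *Ivl* (-0.21). The sums were 14.7 to 29.0 CPM in control and 27.2 to 44.4 CPM in cKO libraries. *Krt15* was the largest part of them, and it was higher in every cKO library (19.7 to 33.1 CPM) than in any control (7.04 to 19.3 CPM). Of 6 mesothelial markers 0 passed in edgeR or DESeq2 (1 with an unadjusted p under 0.05 in each), with sums of 55.3 CPM in control replicate 2, 112 to 155 CPM in the other controls and 94.8 to 151 CPM in cKO libraries. The parts of these cell types in the collagen differences were not tested. Of the 8 stromal markers *Thy1* and *Hoxa11* fell, with sums of 1716 to 2088 CPM in control and 1570.3 to 1951 CPM in cKO libraries. In edgeR 0 of 7 smooth muscle, 7 epithelial and 7 endothelial markers passed, where 2, 2 and 3 had an unadjusted p under 0.05 and DESeq2 called 1, 1 and 0. Log2 ratios were nevertheless above 0 in 7, 7 and 6 of them (50.1% of all genes), and below 0 in 7 of the 8 stromal markers. Smooth muscle sums were 7281 to 9241 CPM in control and 8093 to 9241 CPM in cKO libraries. Epithelial sums were 1199 to 1430 and 1349 to 1657 CPM, and endothelial sums 700 to 889 and 728 to 931 CPM. No marker of these tissues was under 53.5 CPM in any library. The deleted gene *Ezh2* averaged 45.0 ± 8.70 CPM in the controls and 36.8 ± 4.41 CPM in the cKO libraries (SD, n = 4), which overlapped (adjusted p = 0.247 in edgeR), and its counts cover exons outside the floxed part too.

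Levels of different genes were compared per kilobase (kb) of exon, since long transcripts give more fragments. On this scale the 5 highest collagen genes were *Col3a1*, *Col1a1*, *Col6a1*, *Col4a1* and *Col6a2*, which held 60.6% of the summed level of all 42. *Col3a1* was at 641 CPM per kb in control and 821 CPM per kb in cKO uteri, *Col1a1* at 237 and 313, and *Col6a1* at 207 and 213. At the other end, *Col2a1*, the fibril collagen of cartilage, and *Col28a1* were at or under 0.0639 CPM per kb in the mean of each genotype and under 1 CPM in every library.

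**Figure D2:**
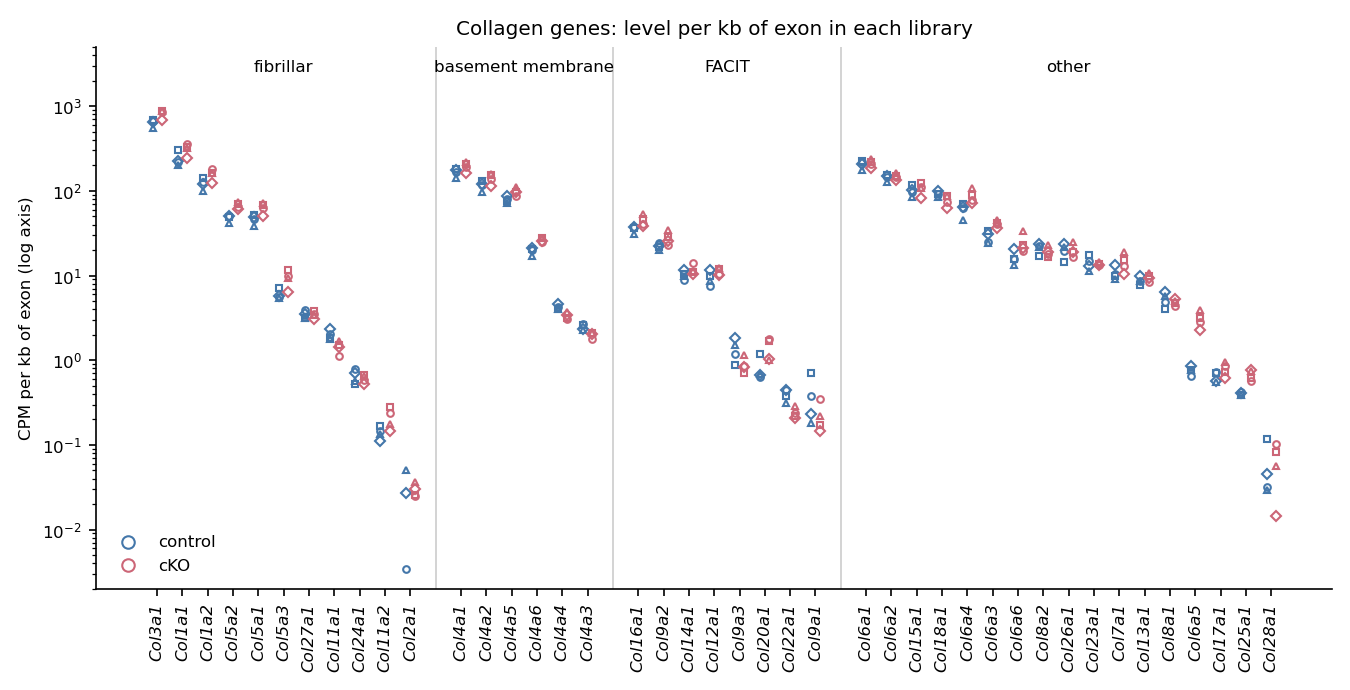
Level of each collagen gene as CPM per kb of exon (vertical axis, log scale) by class (horizontal axis), with one open symbol per library, control in blue and cKO in red, and symbol shapes for replicates 1 to 4 as in the plot of CPM by library. *Col3a1* is the highest at 641 (control mean) and 821 (cKO mean) CPM per kb and *Col2a1* the lowest. *Col2a1* in control replicate 2 had no counts and is not drawn.

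Among the 11 fibrillar genes, *Col3a1*, *Col5a1* and *Col5a2* rose and *Col11a1* fell, and 9 of 11 log2 ratios were above 0, with a median of 0.40. *Col3a1* encodes the chain of type III collagen, which is abundant in distensible organs such as the uterus (Entrez 12825, chr1:45311538-45349706 of GRCm38). It was at 6579.5, 6783, 5395 and 6392 CPM in control replicates 1 to 4 and at 8368, 8606, 8574 and 6702 CPM in cKO replicates 1 to 4. The first 3 cKO libraries were above all controls, and cKO replicate 4 was inside the control range. The log2 ratio was 0.36 (SE 0.09, adjusted p = 0.0454 in edgeR). *Col3a1* passed in 2 of the 8 fits with a library left out, those without control replicate 2 and without cKO replicate 4, and its adjusted p in edgeR reached 0.124 without another library. The call was also lost where the spread was estimated without down-weighting outlying genes, the setting robust = FALSE (adjusted p = 0.0504 in edgeR).

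Types V and XI are the low-abundance fibrillar collagens that start fibrils and limit their width. *Col5a2* (Entrez 12832, chr1:45374331-45503282), which lies 24.6 kb from *Col3a1*, was at 480.0, 465, 403 and 488 CPM in controls and at 612, 668, 711 and 581 CPM in cKO uteri. All cKO libraries were above all controls, with a log2 ratio of 0.49 (SE 0.08, adjusted p = 0.0034 in edgeR), and the call was kept in all 8 fits without one library. The partner chain *Col5a1* (Entrez 12831, chr2:27886381-28039510) was at 392, 440, 326 and 418 CPM in controls and at 528, 573, 608 and 429 CPM in cKO uteri. As in *Col3a1*, cKO replicate 4 was inside the control range, the log2 ratio was 0.44 (SE 0.11, adjusted p = 0.0486 in edgeR), and only the fits without control replicate 2 and without cKO replicate 4 kept the call out of the 8, with an adjusted p of up to 0.13. The *Col5a1* call was also lost in limma-voom (adjusted p = 0.0569) and with no filter on low counts (adjusted p = 0.0560 in edgeR). *Col5a3*, the minor chain of type V, was at 38.0, 48.2, 36.7 and 39.1 CPM in controls and at 66.9, 79.6, 63.7 and 43.1 CPM in cKO uteri, and it did not pass the test (log2 ratio 0.65, adjusted p = 0.0593 in edgeR).

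*Col11a1* (Entrez 12814, chr3:114030479-114220756), the main chain of type XI, went the other way from the type V chains. It was at 26.2, 23.0, 23.0 and 29.7 CPM in controls and at 14.5, 19.1, 21.8 and 18.4 CPM in cKO uteri. Every cKO library was below every control library, and the log2 ratio was -0.47 (SE 0.12, adjusted p = 0.0451 in edgeR). The call was kept without control replicate 2 or cKO replicate 3 and lost in the other 6 fits without one library, up to an adjusted p of 0.128, and *Col11a1* was also lost with a filter of 1 CPM (adjusted p = 0.0510 in edgeR). Its partner chains did not pass: *Col11a2* was at 1.01, 1.16, 0.928 and 0.769 CPM in controls and at 1.63, 1.91, 1.20 and 1.02 CPM in cKO uteri, and *Col2a1* was at 0.032, 0, 0.464 and 0.247 CPM in controls and at 0.233, 0.234, 0.339 and 0.28 CPM in cKO uteri. Per kb, the level of *Col11a1* relative to *Col5a1* in the same library was 0.0434 ± 0.0059 in control and 0.0232 ± 0.0042 in cKO uteri (SD, n = 4 each), and the libraries of the genotypes did not overlap. *Col1a1* and *Col1a2*, the chains of type I collagen, were chosen for naming after their values were seen because they are the most familiar fibril genes. They had log2 ratios of 0.40 and 0.36 and adjusted p values of 0.129 and 0.112 in edgeR, and they passed without cKO replicate 4.

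**Figure D3:**
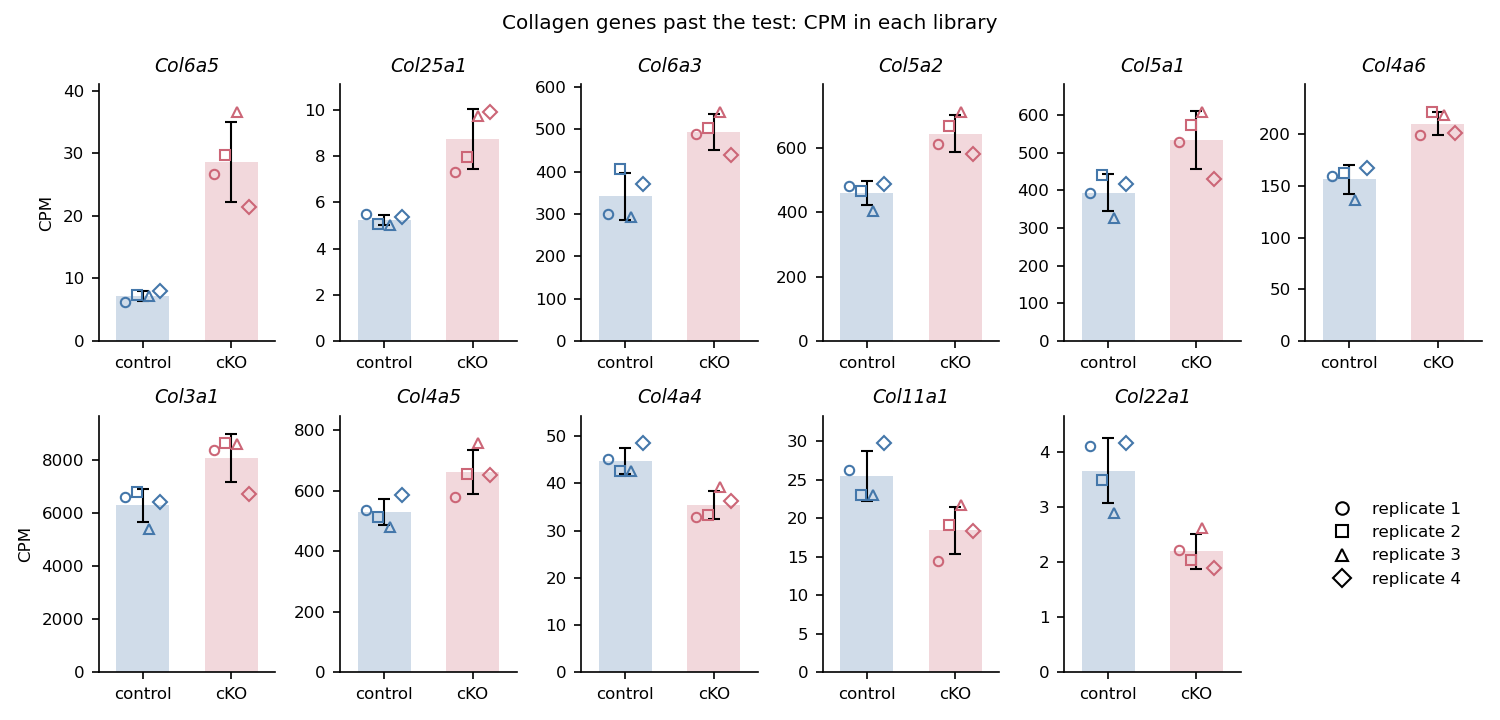
CPM (vertical axes, from 0) of the 11 collagen genes with an adjusted p under 0.05, in control (blue) and cKO (red) uteri. Bars are means, black lines the SD over 4 mice, and symbols single libraries by replicate number. The groups do not overlap in 8 of the 11 genes, and they overlap in *Col3a1*, *Col5a1* and *Col4a5*. *Col6a5* goes from a mean of 7.16 to 28.6 CPM.

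The 6 type IV chains of the basement membrane class did not move together. Type IV chains assemble as a ubiquitous trimer of the *Col4a1* and *Col4a2* products, as a trimer of the *Col4a3*, *Col4a4* and *Col4a5* products, and as a trimer of the *Col4a5* and *Col4a6* products, which is known from basement membranes around smooth muscle. *Col4a5* and *Col4a6* rose, *Col4a4* fell, and the others did not pass. The genes lie in head-to-head pairs with short or overlapping starts: *Col4a4* and *Col4a3* overlap by 114 bases on chromosome 1, *Col4a6* and *Col4a5* are 1.3 kb apart on the X chromosome, and *Col4a1* and *Col4a2* overlap by 85 bases on chromosome 8.

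The 300-base windows around the annotated starts of *Col4a4*, *Col4a6* and *Col4a5* (250 bases before and 50 after, RefSeq, GRCm38.p6, each on the strand of its gene) are shown because these pairs share or nearly share a start region while their members went in opposite directions between pairs. Capitals mark GGGCGG, the core of the GC box bound by SP1 family factors, CCAAT and TATAAA, each searched on both strands. The window of *Col4a4* is chr1:82586800-82587099 (minus strand), that of *Col4a6* is chrX:141474027-141474326 (minus strand), and that of *Col4a5* is chrX:141475169-141475468 (plus strand).
Col4a4: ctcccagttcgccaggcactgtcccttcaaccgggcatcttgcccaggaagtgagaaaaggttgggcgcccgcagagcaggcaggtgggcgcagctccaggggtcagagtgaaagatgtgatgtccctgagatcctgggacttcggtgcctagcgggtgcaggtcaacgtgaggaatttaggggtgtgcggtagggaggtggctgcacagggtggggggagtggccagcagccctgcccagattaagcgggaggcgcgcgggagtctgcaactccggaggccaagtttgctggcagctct
Col4a6: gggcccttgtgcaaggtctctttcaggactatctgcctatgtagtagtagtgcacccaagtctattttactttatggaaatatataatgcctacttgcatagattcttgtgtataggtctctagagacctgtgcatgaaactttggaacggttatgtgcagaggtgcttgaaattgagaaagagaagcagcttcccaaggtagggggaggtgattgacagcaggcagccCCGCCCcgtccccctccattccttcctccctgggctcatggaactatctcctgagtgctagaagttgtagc
Col4a5: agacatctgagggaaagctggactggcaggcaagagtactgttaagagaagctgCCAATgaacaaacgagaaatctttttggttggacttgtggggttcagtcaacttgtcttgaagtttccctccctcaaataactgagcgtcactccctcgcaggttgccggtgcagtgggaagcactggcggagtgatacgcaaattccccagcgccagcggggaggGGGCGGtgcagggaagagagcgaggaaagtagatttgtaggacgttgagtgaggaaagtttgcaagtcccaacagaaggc
The *Col4a4* window also covers the annotated start of *Col4a3*, and it holds none of these motifs. That of *Col4a6* has the GC box, and that of *Col4a5* has both the GC box and CCAAT. Windows were given for 33 of the 42 genes, in 36 windows counting alternative starts, and GGGCGG was in 63.9% of them, beside 35.7% of 32851 mouse windows. CCAAT was in 36.1% of the collagen windows (37.4% of all) and TATAAA in 11.1% (13.6% of all). The median GC content was 60.0% in collagen windows and 52.7% in all. These are letter matches and not sites.

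*Col4a6* (Entrez 94216, chrX:141165403-141474095) was at 160.0, 163, 136 and 168 CPM in controls and at 199.7, 222, 218 and 202 CPM in cKO uteri. All cKO libraries were above all controls, the log2 ratio was 0.43 (SE 0.07, adjusted p = 0.0039 in edgeR), and all 8 fits without one library kept the call. *Col4a5* (Entrez 12830, chrX:141475370-141689236) was at 535, 514, 481 and 587 CPM in controls and at 579, 655, 755 and 651 CPM in cKO uteri. Its groups overlapped in cKO replicate 1, and the log2 ratio was 0.32 (SE 0.08, adjusted p = 0.0452 in edgeR). The call was kept without control replicate 4 or without either of cKO replicates 1 and 4, and lost in the other 5 fits, up to an adjusted p of 0.131.

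*Col4a4* (Entrez 12829, chr1:82448419-82587034) was at 45.2, 42.7, 42.6 and 48.5 CPM in controls and at 32.9, 33.4, 39.3 and 36.3 CPM in cKO uteri. No cKO library reached the lowest control, and the log2 ratio was -0.34 (SE 0.07, adjusted p = 0.0196 in edgeR). The call was lost without either of control replicates 1 and 4 or of cKO replicates 1 and 2, with an adjusted p of up to 0.0754. Its head-to-head neighbor *Col4a3* was at 26.7, 25.9, 22.4 and 23.3 CPM in controls and at 17.6, 20.9, 20.7 and 20.1 CPM in cKO uteri, also with no overlap, but did not pass (log2 ratio -0.31, SE 0.08, adjusted p = 0.0552 in edgeR). On the opposite strand 563 of the 9967 exonic bases of *Col4a3* are shared with the transcript C430014B12Rik. The strand setting of the counting is not stated, so reads in that stretch cannot be assigned to either transcript. *Col4a1*, the most abundant type IV gene, was at 1256, 1360, 1052 and 1303 CPM in controls and at 1414, 1562, 1615 and 1204 CPM in cKO uteri, with overlap in cKO replicate 4 and an adjusted p of 0.228 in edgeR. *Col4a2* had a log2 ratio of 0.27 with an adjusted p of 0.197 in edgeR.

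Set against each other within a library, which removes any difference in total scaling, *Col4a5* was 18.7, 19.0, 17.8 and 19.1 times the level of *Col4a4* per kb in controls and 27.8, 31.0, 30.3 and 28.3 times in cKO uteri. This ratio did not overlap between the genotypes, with 18.7 ± 0.58 in control and 29.4 ± 1.56 in cKO (SD, n = 4 each), and cKO replicate 4 was like the other cKO libraries. The ratios within each head-to-head pair did overlap. *Col4a6* to *Col4a5* was 0.25 ± 0.013 in control and 0.27 ± 0.022 in cKO, *Col4a3* to *Col4a4* was 0.586 ± 0.062 and 0.597 ± 0.048, and *Col4a1* to *Col4a2* was 1.43 ± 0.026 and 1.39 ± 0.030 (SD, n = 4 each). In all, 14 ratios between chains were computed, of which 4 did not overlap. Each of these 4 includes a gene that passed the test. *Col4a5* to *Col4a4* and *Col11a1* to *Col5a1* set a gene that rose against one that fell, so their separation follows from the calls and adds no support. How often the ratios of other gene pairs separate was not tested. The ratios use the same libraries as the tests of the single genes and are given as descriptions.

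**Figure D4:**
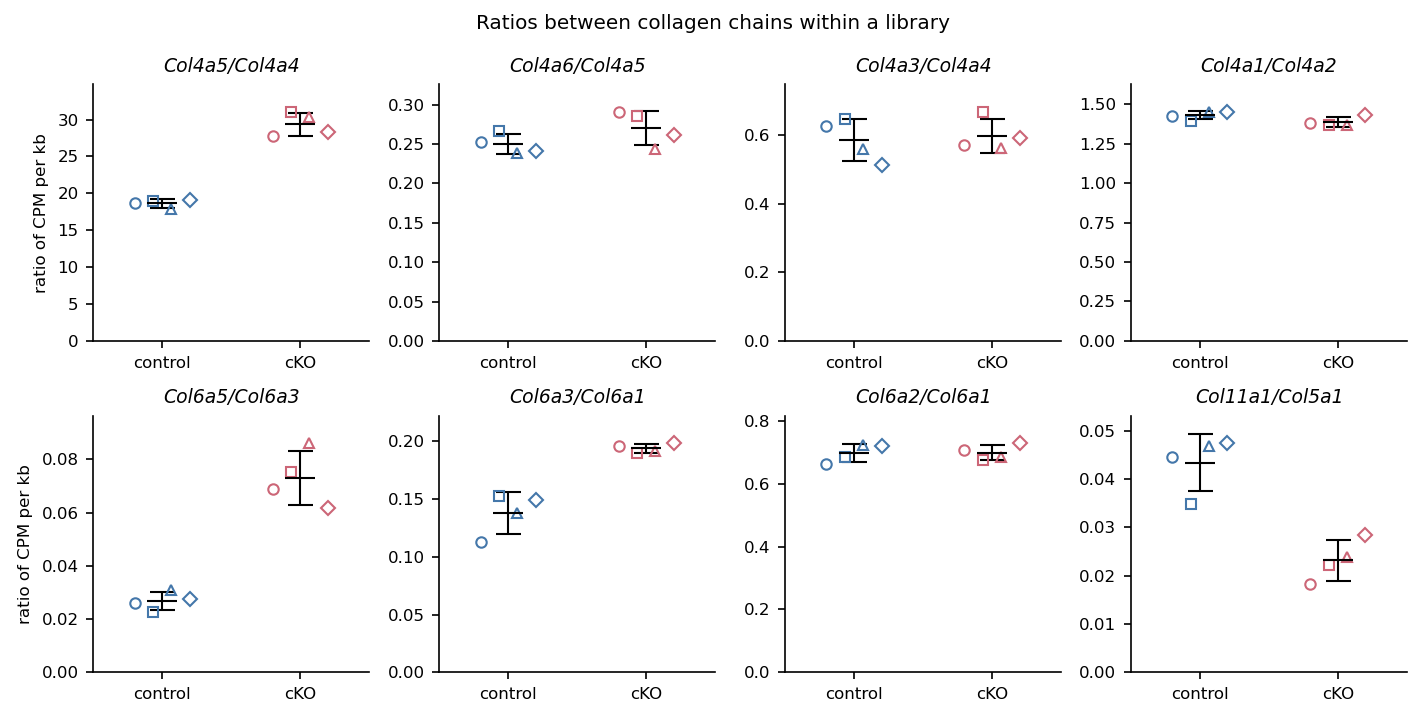
Ratios between the CPM per kb of pairs of collagen genes within a library (vertical axes, from 0) in control (blue) and cKO (red) uteri, with symbols for single libraries (circle, square, triangle and diamond for replicates 1 to 4) and black lines for mean and SD over 4 mice. *Col4a5*/*Col4a4*, *Col6a5*/*Col6a3*, *Col6a3*/*Col6a1* and *Col11a1*/*Col5a1* separate the genotypes, and the other 4 ratios drawn overlap.

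Type VI collagen is built from the *Col6a1* and *Col6a2* chains together with one of the long chains encoded by *Col6a3*, *Col6a4*, *Col6a5* or *Col6a6*. Of these 6 genes, *Col6a5* and *Col6a3* rose and the other 4 did not pass, and all 6 log2 ratios were above 0, with a median of 0.52. *Col6a4*, *Col6a5* and *Col6a6* lie next to each other on chromosome 9, with *Col6a5* in the middle, 27.8 kb from *Col6a6* and 27.9 kb from *Col6a4*. Their start windows are shown because the middle gene differed most among all collagens. The window of *Col6a5* is chr9:105960594-105960893, around a start inside the annotated gene, that of *Col6a6* is chr9:105828036-105828335, and that of *Col6a4* is chr9:106096642-106096941, all on the minus strand (RefSeq, GRCm38.p6), with capitals as above.
Col6a5: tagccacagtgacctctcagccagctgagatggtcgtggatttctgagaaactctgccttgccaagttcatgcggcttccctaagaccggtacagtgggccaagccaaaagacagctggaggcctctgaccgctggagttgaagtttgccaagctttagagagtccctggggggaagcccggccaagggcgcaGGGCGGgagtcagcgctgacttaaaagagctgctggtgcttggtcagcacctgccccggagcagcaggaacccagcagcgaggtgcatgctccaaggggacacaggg
Col6a6: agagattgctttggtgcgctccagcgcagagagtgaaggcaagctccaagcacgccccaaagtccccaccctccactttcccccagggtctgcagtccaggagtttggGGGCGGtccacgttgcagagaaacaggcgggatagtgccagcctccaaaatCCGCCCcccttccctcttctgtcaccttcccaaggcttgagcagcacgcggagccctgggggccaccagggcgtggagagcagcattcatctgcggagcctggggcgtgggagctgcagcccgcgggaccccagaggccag
Col6a4: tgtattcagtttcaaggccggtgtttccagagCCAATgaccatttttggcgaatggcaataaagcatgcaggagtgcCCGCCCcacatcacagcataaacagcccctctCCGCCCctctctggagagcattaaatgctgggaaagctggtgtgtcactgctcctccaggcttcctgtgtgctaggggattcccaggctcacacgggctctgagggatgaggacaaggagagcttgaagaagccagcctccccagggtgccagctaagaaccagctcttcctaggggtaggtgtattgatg
All of these windows hold GGGCGG on at least one strand, and that of *Col6a4* also holds CCAAT.

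*Col6a5* (Entrez 665033, chr9:105856070-105962463) was at 6.18, 7.31, 7.14 and 8.02 CPM in controls and at 26.6, 29.8, 36.6 and 21.4 CPM in cKO uteri. The lowest cKO library, replicate 4, was still well above the highest control. The mean ± SD over 4 mice was 7.16 ± 0.756 CPM in controls and 28.6 ± 6.35 CPM with the deletion. This gave a log2 ratio of 2.00 (SE 0.15, adjusted p = 3.0e-05 in edgeR), which is 4.00-fold. The call was kept in all 8 fits without one library, with a log2 ratio from 1.85 to 2.11. For cKO replicate 4 alone against the controls the log2 ratio was 1.59, from a single library with no spread of its own. *Col6a5* also passed with a score of the fat markers as a covariate, at a log2 ratio of 1.63 (adjusted p = 0.0024 in edgeR). Per kb it remained the lowest of the type VI genes, at 0.761 CPM per kb in control and 3.04 CPM per kb in cKO uteri, beside 28.6 and 41.3 for *Col6a3* and 60.7 and 86.7 for *Col6a4*.

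*Col6a3* (Entrez 12835, chr1:90766860-90844001), the usual long chain, was at 299, 407, 293 and 370 CPM in controls and at 490.0, 503, 541 and 440.2 CPM in cKO uteri. All cKO libraries were above all controls, with a log2 ratio of 0.53 (SE 0.11, adjusted p = 0.0148 in edgeR). It was lost in 1 of the 8 fits without one library, that without control replicate 1 (adjusted p = 0.0502). *Col6a4* was at 538, 601, 387 and 545 CPM in controls and at 659, 769, 909.9 and 618 CPM in cKO uteri. Its groups did not overlap either, but it did not pass (log2 ratio 0.51, SE 0.15, adjusted p = 0.0812 in edgeR). *Col6a6* was at 144, 145, 123 and 189 CPM in controls and at 177, 209, 306 and 195 CPM in cKO uteri, with overlap and an adjusted p of 0.131 in edgeR.

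The short chains did not pass the test. *Col6a1* was at 973, 975, 778 and 907 CPM in controls and at 917, 968, 1034 and 813 CPM in cKO uteri, with a log2 ratio of 0.04 (SE 0.09). *Col6a2* was at 1226, 1271, 1071 and 1241 CPM in controls and at 1229.9, 1241, 1347 and 1125 CPM in cKO uteri, with a log2 ratio of 0.04 (SE 0.07). The sign of either turned without control replicate 3 or cKO replicate 3. The ratio of *Col6a2* to *Col6a1* per kb was 0.698 ± 0.029 in control and 0.698 ± 0.024 in cKO uteri, whereas *Col6a3* to *Col6a1* was 0.138 ± 0.018 and 0.194 ± 0.0037 without overlap, and *Col6a5* to *Col6a3* was 0.0269 ± 0.0034 and 0.0731 ± 0.010 without overlap (SD, n = 4 each). In the latter pair of ratios cKO replicate 4 was above every control.

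The 8 FACIT genes held 1 call, in *Col22a1*, and 5 log2 ratios above 0, with a median of 0.23. *Col22a1* (Entrez 69700, chr15:71795795-72150979), a collagen of junctions such as that between muscle and tendon, was at 4.10, 3.48, 2.89 and 4.15 CPM in controls and at 2.21, 2.04, 2.62 and 1.89 CPM in cKO uteri. Every cKO library was below every control, and the log2 ratio was -0.74 (SE 0.17, adjusted p = 0.0279 in edgeR). The call was lost without either of control replicates 1 and 4 or of cKO replicates 1 and 2, with an adjusted p of up to 0.103. *Col16a1*, the highest FACIT gene per kb, was at 251, 243, 211 and 250.3 CPM in controls and at 274, 312, 355 and 259 CPM in cKO uteri. Its groups did not overlap, but it did not pass (log2 ratio 0.33, adjusted p = 0.0684 in edgeR). The other 6 FACIT genes had log2 ratios from -0.75 to 0.79 and did not pass in edgeR's quasi-likelihood test. DESeq2 called 4 of the 8, with *Col20a1* (log2 ratio 0.79, adjusted p = 0.0188 in DESeq2), *Col9a2* (0.33 in edgeR, adjusted p = 0.0463 in DESeq2) and *Col16a1* added, and so did edgeR's likelihood ratio test (9.08% of all genes), with 0.0301 for *Col20a1* and 0.0485 for *Col9a2*.

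The transmembrane collagens span the cell membrane and can be shed from it. Of the 4, *Col25a1* rose. This gene (Entrez 77018, chr3:130180358-130599884), whose product is needed for motor axons to reach muscle, was at 5.49, 5.07, 5.03 and 5.38 CPM in controls and at 7.30, 7.97, 9.73 and 9.91 CPM in cKO uteri. All cKO libraries were above all controls, and the highest of them was replicate 4, which was the lowest cKO library in 26 collagen genes. The log2 ratio was 0.74 (SE 0.13, adjusted p = 0.0047 in edgeR), and all 8 fits without one library kept the call. So did the fit with the fat score as a covariate (0.94, adjusted p = 0.0334 in edgeR). For cKO replicate 4 alone, a single library with no spread of its own, the log2 ratio was 0.93 and the call was not kept. *Col23a1*, the highest transmembrane collagen gene per kb, was at 85.3, 102, 64.3 and 75.3 CPM in controls and at 75.7, 79.0, 81.9 and 76.8 CPM in cKO uteri, with overlap and an adjusted p of 0.808 in edgeR.

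The remaining collagen genes did not pass. *Col15a1*, a multiplexin of vessel and muscle basement membranes, was at 618, 744, 533 and 648 CPM in controls and at 715, 780.1, 684 and 521 CPM in cKO uteri. *Col7a1*, the anchoring fibril collagen under stratified epithelia, was at 107, 101, 93.6 and 136 CPM in controls and at 135, 157, 194 and 106 CPM in cKO uteri. *Col8a2*, a short-chain network collagen, was at 101, 76.1, 97.8 and 106 CPM in controls and at 80.7, 73.6, 103 and 85.3 CPM in cKO uteri. In all of these the genotypes overlapped, as they did in *Col26a1*, at 159, 118, 175 and 195 CPM in controls and 137, 155, 205 and 157 CPM in cKO uteri. Their adjusted p values in edgeR were 0.732, 0.22, 0.483 and 0.967. *Col18a1*, the other multiplexin and the source of endostatin, was chosen for naming after its values were seen because its log2 ratio of -0.24 (SE 0.09, adjusted p = 0.156 in edgeR) was the lowest of the 17 genes outside the fibrillar, basement membrane and FACIT classes.

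Genes that modify, process, cross-link and bind collagen were read out from the same fit. Of 75 tested partner genes, 6 rose and 1 fell (9.33%, beside 5.34% of all genes), and their median log2 ratio was 0.08. Their number was 4 of 74 without control replicate 1 (2.38% of all genes in that fit) or cKO replicate 2 (2.94%), 14 of 75 without control replicate 2 (5.72%), 3 of 75 without cKO replicate 1 (2.74%) and 17 of 74 without cKO replicate 4 (10.7%). With the fat score as a covariate only *Pcolce2* passed (log2 ratio 0.94, adjusted p = 0.0475 in edgeR), and for cKO replicate 4 alone 0 passed in edgeR, where 7 of the partner genes had an unadjusted p under 0.05. The log2 ratios with the fat score were 0.18 in *Pcolce*, 0.22 in *Lama5*, 0.17 in *Loxl1*, 0.46 in *Aspn*, 0.86 in *Lama1* and -0.78 in *Lama2*, and for cKO replicate 4 alone they were 0.17, 0.24, 0.16, 0.49, 0.96 and -0.73, with 1.00 in *Pcolce2*. Procollagen loses its end propeptides before fibrils form, and 2 of the 8 genes of this step rose, both enhancers of the enzyme that cuts the C-terminal propeptide. *Pcolce2* was at 3.79, 4.53, 3.46 and 3.65 CPM in controls and at 7.65, 8.50, 7.02 and 7.67 CPM in cKO uteri, with a log2 ratio of 1.00 (SE 0.13, adjusted p = 0.00065 in edgeR). *Pcolce* was at 113, 109.9, 99.2 and 109.7 CPM in controls and at 165, 163, 143 and 121 CPM in cKO uteri, with a log2 ratio of 0.46 (SE 0.09, adjusted p = 0.0133 in edgeR). In both genes every cKO library was above every control.

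Among the 5 lysyl oxidases, which cross-link collagen and elastin, *Loxl1* rose, from 105.7, 113, 106.7 and 116 CPM in controls to 134, 134, 147 and 122 CPM in cKO uteri (log2 ratio 0.28, adjusted p = 0.0211 in edgeR). Of 14 fibril-binding proteoglycans and glycoproteins, *Aspn*, which encodes the small proteoglycan asporin, rose from 13.4, 15.3, 14.2 and 13.3 CPM to 28.2, 24.1, 18.1 and 19.7 CPM (log2 ratio 0.68, adjusted p = 0.0090 in edgeR). Neither gene had overlapping groups. Laminins are the other main network of the basement membrane, and of 16 genes for laminin chains and further basement membrane proteins 2 rose and 1 fell. The alpha chain gene *Lama5* was at 176, 236, 201 and 209.8 CPM in controls and at 318, 299, 278 and 242 CPM in cKO uteri (log2 ratio 0.47, adjusted p = 0.0177 in edgeR). *Lama1* was at 1.61, 2.48, 1.36 and 1.21 CPM and at 2.68, 2.91, 3.27 and 3.19 CPM (log2 ratio 0.87, adjusted p = 0.0366 in edgeR). *Lama2*, the alpha chain of muscle laminin, fell from 98.1, 136, 97.0 and 109.7 CPM to 72.6, 84.3, 81.7 and 65.7 CPM (log2 ratio -0.53, adjusted p = 0.0209 in edgeR). The genotypes separated in all of these laminin genes, with *Lama5* and *Lama1* higher and *Lama2* lower in every cKO library.

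The enzymes and carriers that work on collagen inside the cell gave no call in edgeR's quasi-likelihood test on all 8 libraries. Other fits in edgeR called *P4ha1*, a subunit of prolyl 4-hydroxylase (with the likelihood ratio test, robust = FALSE, the replicate block or without cKO replicate 4), *P3h3* and *Fkbp10* (without cKO replicate 4) and *P4ha2* (without cKO replicate 3). Of 15 genes for prolyl and lysyl hydroxylation and glycosylation 0 passed, where 4 had an unadjusted p under 0.05 and DESeq2 and limma-voom called 1 each. Of 8 folding and secretion genes 0 passed, where 2 had an unadjusted p under 0.05 and DESeq2 and limma-voom called 0. The summed CPM of these lists was 1469.9 to 1543 in control and 1453 to 1503 in cKO libraries for the hydroxylation genes, and 1317 to 1419 and 1296 to 1383 for the folding genes. Of 9 collagen receptor genes 0 passed, where 2 had an unadjusted p under 0.05, DESeq2 called 1 and limma-voom called 0.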

How the data were processed

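RNA-seq libraries (TruSeq stranded mRNA) were made from 8 mouse uteri. The authors used Trimmomatic for trimming, HISAT2 for alignment (GRCm38) and featureCounts for counting, and deposited the raw counts of 27179 Entrez genes in each library. Tool versions, annotation release and strand setting are not given in the sources used here. The authors' deposited edgeR table (p-values, an F score, and fold change and mean CPM as log2) was used for its gene symbols only, which with RefSeq named 25440 genes. The collagen genes and all lists were chosen with earlier results of these data known.

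Counts were analysed in R 4.3.3 with edgeR 4.0.16 (CPM over 0.2 in at least 4 libraries, TMM, glmQLFit and glmQLFTest with robust = TRUE, prior count 0.125) on all genes, with Benjamini-Hochberg adjustment. The standard error is the log2 fold change divided by the square root of F. DE genes had an adjusted p under 0.05 and differed over 2-fold. The exact permutation tests used log2(CPM + 0.1) over 70 arrangements and cannot give under 0.029. Exonic length is the union of GENCODE M21 exons on GRCm38. Alternatives were other scalings, DESeq2 1.42.0, limma-voom (limma 3.58.1), other filters, a replicate block, leaving out libraries and a fat score covariate, the mean log2(CPM + 0.1) of the tested fat markers. The fit was tested on simulated data. Genes named with all values are those with an adjusted p under 0.05, the highest per kb in each class or subclass, their trimer partners, and partner list genes that passed. Others are said to be chosen after their values were seen. A gene with no counts could be at up to 0.0818 to 0.119 CPM (3 counts), which covers counting error only. The labels do not state litters or batches. Exons of *Col3a1*, *Col5a1*, *Col22a1*, *Col4a1*, *Col4a2*, *Col6a4* and *Col6a6*, among others, share some bases with another annotated transcript, so their counts are uncertain there.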

Additional observations from a re-analysis of the deposited data

Results flagged for a closer look

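Each of 114 groups of 4 values, for the CPM of the 42 collagen genes, the 14 chain ratios and the summed collagen CPM in each genotype, was searched for a library far from the other 3, and 3 groups had one. Chance flags about 1 in 20 such groups. *Col20a1* was at 6.03 CPM in control replicate 2, beside 3.28 to 3.57 CPM in the other controls. *Col3a1* was at 6702 CPM in cKO replicate 4, beside 8368 to 8606 CPM in the other cKO libraries. The ratio of *Col5a1* to *Col5a2* per kb was 0.834 in cKO replicate 4, beside 0.966 to 0.974 in the other cKO libraries, and that library also had the lowest sum of fat markers among them. The part of fat in these values was not tested.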

How the results depend on the processing

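The same 11 collagen genes passed with other size factors and with no scaling beyond library size. With robust = FALSE (*Col3a1* lost, *Col5a3* gained), no filter (*Col5a1* lost, *Col4a3* gained) and a filter of 1 CPM (*Col11a1* lost, *Col5a3* gained) there were again 11, of which 10 were shared, and limma-voom gave 10, without *Col5a1*. The count was 19 in DESeq2 (9.06% of all genes) and in the likelihood ratio test (9.08%), 2 with the fat score as a covariate (0.588%), 1 for cKO replicate 4 alone (0.217%), whose spread is assumed to be that of the controls, and 4 to 19 without one library, where 2.38% to 10.7% of all genes passed (4 without control replicate 1, 7 without control replicate 3, 6 without control replicate 4 or cKO replicate 1, 5 without cKO replicate 2 and 19 without cKO replicate 4). The count of DE collagen genes was 1 throughout, also with the threshold inside the test (glmTreat), except for 2 without control replicate 2, a range of 1 to 2. The median log2 ratio was 0.20 to 0.34 without one library, 0.0546 with the fat score and 0.0294 for cKO replicate 4 alone. Of the 9 calls lost with the fat score, 7 kept log2 ratios within 1.5 times of those without it, unlike *Col3a1* and *Col5a1*. Among these 7, *Col5a2*, *Col4a6*, *Col6a3*, *Col4a4* and *Col11a1* had smaller differences with the fat score, and *Col4a5* and *Col22a1* had larger ones. The largest decrease of the 7 was in *Col6a3*, from 0.53 to 0.36. The median over all collagen genes went from 0.25 to 0.0546. A lost call does not by itself measure the size of a difference. The 7 partner genes became 15 in DESeq2, the likelihood ratio test and the replicate block, 3 to 17 without one library (4 without control replicate 1 or cKO replicate 2, 14 without control replicate 2, 3 without cKO replicate 1 and 17 without cKO replicate 4), 1 with the fat score (*Pcolce2*), and 0 for cKO replicate 4 alone in edgeR (7 with an unadjusted p under 0.05). The fat score tracks genotype in 3 of the cKO libraries, so its part and that of genotype cannot be told apart there. Over all genes 98 passed with it and 889 without. Genotypes share only replicate numbers in the labels, and deviations of same-numbered libraries correlated at 0.024, 0.113, -0.0035 and 0.194. With 4 libraries per genotype these values cannot decide whether the numbers pair the mice, and the numbers were not treated as pairs in the main fit. With the replicate block 13 collagen genes passed (7.44% of all genes), 10 of them shared with the fit without it, and *Col5a1* was lost (adjusted p = 0.0718 in edgeR).

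Signs turned in 32 of 878 alternative values of single genes, none of them in a gene that passed the test. Without one library, the log2 ranges of genes whose sign turned were -0.19 to 0.0117 in *Col24a1*, -0.16 to 0.0637 in *Col23a1*, -0.0200 to 0.0921 in *Col27a1*, -0.11 to 0.12 in *Col26a1*, -0.0122 to 0.0779 in *Col6a2*, -0.0283 to 0.0956 in *Col6a1*, -0.21 to 0.0084 in *Col8a1* and -0.0765 to 0.80 in *Col28a1*. With the fat score they were -0.0225 in *Col4a2*, -0.000587 in *Col11a2*, -0.0199 in *Col4a1*, 0.0755 in *Col8a1*, -0.29 in *Col15a1*, -0.0695 in *Col6a2*, -0.13 in *Col6a1*, -2.06 in *Col28a1* and -0.10 in *Col27a1*. For cKO replicate 4 alone they were -0.0383 in *Col4a2*, -0.033 in *Col7a1*, -0.0377 in *Col4a1*, -0.0253 in *Col17a1*, 0.0311 in *Col8a1*, -0.28 in *Col15a1*, -0.0878 in *Col6a2*, -0.15 in *Col6a1*, -0.13 in *Col27a1* and -0.0358 in *Col26a1*. The causes were not tested.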
